A study of Homo sapiens with 11 samples.

Results

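The genes described here are 10 human genes of the NF-kB system, namely the 5 subunit genes NFKB1, NFKB2, RELA, RELB and REL and 5 genes of its inhibitors and feedback regulators, NFKBIA, NFKBIB, NFKBIE, TNFAIP3 and BCL3. They were chosen by symbol from a table of 28152 gene symbols, with earlier results of the same comparison known, so their fold changes and adjusted p-values are given as a description. All 10 were among the 16653 symbols that passed the filter on low counts. Total RNA was sequenced from xenografts of BT-474, an established human breast cancer line whose label reads HR+/Her2+ (hormone receptors and HER2). The cells were grown in the mammary fat pad of female athymic nude mice, which lack a thymus and therefore most T cells but keep other immune cells, and every animal carried a slow-release pellet of 0.72 mg estradiol made to last 90 days. Tumours could be enrolled once they passed 95 mm3, and dosing under the skin was repeated every 4 days. The 6 vehicle tumours came from animals given mannitol in water, and the 5 evexomostat tumours from animals given 12 mpk of evexomostat (SDX-7320, spelled SDX-7230 in one field of the labels), an inhibitor of methionine aminopeptidase 2 (MetAP2), in the same liquid. All 11 are labelled day 33. The age of the animals is not given in the sources used here. The labels do not state that each tumour came from its own animal, so p-values measure the spread between these 11 tumours.

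NF-kB is a family of transcription factors that work as pairs of subunits. In resting cells the pairs are held in the cytoplasm by IkB proteins, and signals from TNF, interleukin-1 or microbial products activate IKK kinases that mark IkB proteins for destruction, so that the pairs enter the nucleus and switch on cytokine, survival and adhesion genes. Among the genes they switch on are their own inhibitors, such as NFKBIA and TNFAIP3, which end the response, and a slower non-canonical arm works through RELB and NFKB2. In breast cancer the pathway is known for its link to inflammation, survival and resistance to endocrine therapy.

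The promoters of these genes are shown first because several members are textbook targets of the factor they encode or restrain. RefSeq promoter windows (build GRCh38.p14, 250 bases before to 50 bases after a start site) matched 8 of the 10 symbols with 13 windows, and RELB and NFKBIE had no entry. They were searched on both strands for the kappa-B consensus, the general form of the sites that NF-kB pairs bind. It occurred in 7 members (8 windows), against 5.91% of 35116 windows and 7.09% of 27305 symbols in the RefSeq table. Each run below holds 30 bases in the gene's direction, 5′ to 3′, and capitals mark the match to the consensus.
NFKB1, chr4:102501300-102501329, plus strand: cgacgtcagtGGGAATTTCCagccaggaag
NFKB2 at the third of its starts, chr10:102395674-102395703, plus strand: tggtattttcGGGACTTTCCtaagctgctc
REL, chr2:60881518-60881547, plus strand: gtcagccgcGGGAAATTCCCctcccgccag
NFKBIA, chr14:35404811-35404840, minus strand: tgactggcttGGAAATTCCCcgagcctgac
NFKBIB at the second of its starts, chr19:38899932-38899961, plus strand: ggcgtggtgGGGAATTTCCCgcagggcgga
TNFAIP3, chr6:137867188-137867217, plus strand: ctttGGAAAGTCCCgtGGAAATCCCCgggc
BCL3, chr19:44748700-44748729, plus strand: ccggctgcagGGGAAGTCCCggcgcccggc

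The match in NFKB1 began 49 bases before its start site, that in REL 47 bases before and that in NFKBIA 81 bases before, where it reads on the opposite strand. TNFAIP3 held a pair of neighbouring matches, the first beginning 67 bases before the start site, and the match in BCL3 lay after the start, from base 3. RELA, the remaining member with windows, had no match in either of its windows. To show a promoter with and one without a match in longer form, the 120 bases of NFKBIA and of the first start of RELA follow. Neither stretch overlaps an exon of GENCODE release 29.
NFKBIA, chr14:35404750-35404869, minus strand: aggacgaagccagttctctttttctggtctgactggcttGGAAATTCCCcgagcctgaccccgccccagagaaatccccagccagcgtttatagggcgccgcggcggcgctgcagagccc
RELA, chr11:65663858-65663977, minus strand: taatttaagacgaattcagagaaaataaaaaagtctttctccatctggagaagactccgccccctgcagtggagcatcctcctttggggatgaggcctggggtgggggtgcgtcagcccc
A match describes the letters only. Binding was not measured, and no match says only that these letters are not in this window.

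Library totals were 23992505 to 39249329 counts in vehicle tumours and 22808033 to 32093792 in evexomostat tumours, so that 3 counts correspond to 0.0764 to 0.132 RPM (reads scaled to a common library total). Vehicle tumour 001 stood apart from the other libraries. Its 100 most abundant genes took 23.9% of its counts against 16.2% to 17.9% elsewhere, and its ribosomal protein genes took 14.5%. That ribosomal share was 4.89% to 7.10% in the other vehicle tumours and 7.16% to 8.76% in evexomostat tumours, and its part in the results below was not tested. Each member's fold change, and the numbers of members and pathway genes past the threshold, are therefore given with and without it. Of the genes tested, 101 passed an adjusted p of 0.05 in edgeR's quasi-likelihood test with Benjamini-Hochberg adjustment (72 lower and 29 higher under evexomostat), and 865 passed without vehicle 001. Leukocyte markers summed to 136.6 to 244.2 RPM under vehicle and 106.4 to 195.6 RPM under evexomostat, with CD3E and MS4A1 at 0 in all tumours. Of the 8 leukocyte markers tested none passed the threshold, none had an unadjusted p under 0.05 and DESeq2 called 0. Endothelial and stromal markers summed to 79.7 to 370.8 RPM under vehicle and 163.4 to 389.4 RPM under evexomostat, and adipocyte markers to 0.345 to 1.90 RPM and 0.315 to 2.86 RPM. Skeletal muscle markers summed to 3.10 to 18.9 RPM under vehicle and 3.52 to 418.6 RPM under evexomostat. The highest sum was that of evexomostat tumour 005, and tumours 002, 003, 004 and 007 had 3.52, 22.8, 51.7 and 6.32 RPM. All 7 of the muscle markers tested had positive fold changes, with 0 past the threshold, 5 at an unadjusted p under 0.05 and 1 called by DESeq2. Among leukocyte markers the highest vehicle mean was that of S100A9, at 67.8 RPM, and PTPRC had 2.14 RPM. The symbols are human, the host cells are of mouse, and the handling of mouse reads is not given. These sums are therefore not a measure of host cells. The part of these cell types in the results was not tested. Several markers of the labelled line were low or nearly absent. As vehicle means, the receptor genes ERBB2, ESR1 and PGR stood at 51.5, 0.319 and 0.0661 RPM, and the epithelial genes EPCAM, CDH1 and KRT19 at 2.60, 0.47 and 0.49 RPM. KRT8 and KRT18 were the abundant ones, at 332.6 and 129.0 RPM. The low ESR1, PGR and epithelial markers go against the HR+ breast epithelial label, and BT-474 is used here as the name the labels give. ERBB2, the gene of HER2, lay below KRT8 and KRT18, and the Her2+ part of the label was not tested. In bulk tumours, fewer cells of a type and less RNA per cell cannot be told apart.

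All 10 genes had negative log2 fold changes under evexomostat, with a median of -0.36, where 55.4% of all tested genes were negative and the median of all was -0.04. The median was -0.38 for the 5 subunits and -0.33 for the 5 inhibitors. RELB was the only member whose fall passed the threshold, 1 of 10, with 0.432% of all genes called lower and 0.606% called in either direction. At an unadjusted p under 0.05 edgeR had 5 members as lower, with 8.55% of all genes. In 3 members, RELB, REL and NFKBIA, every evexomostat tumour lay below every vehicle tumour, as did 1.64% of all genes. Without vehicle 001 those numbers became 6 members past the threshold (NFKB1, RELA, RELB, REL, NFKBIA and TNFAIP3), where 3.24% of all genes were called lower, and 7 with separate groups (the same 6 and NFKB2), where 4.35% of all genes were. Levels below are CPM, counts scaled to a common library total with TMM factors, and each fold change is the log2 of evexomostat over vehicle with its standard error.

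**Figure D1:**
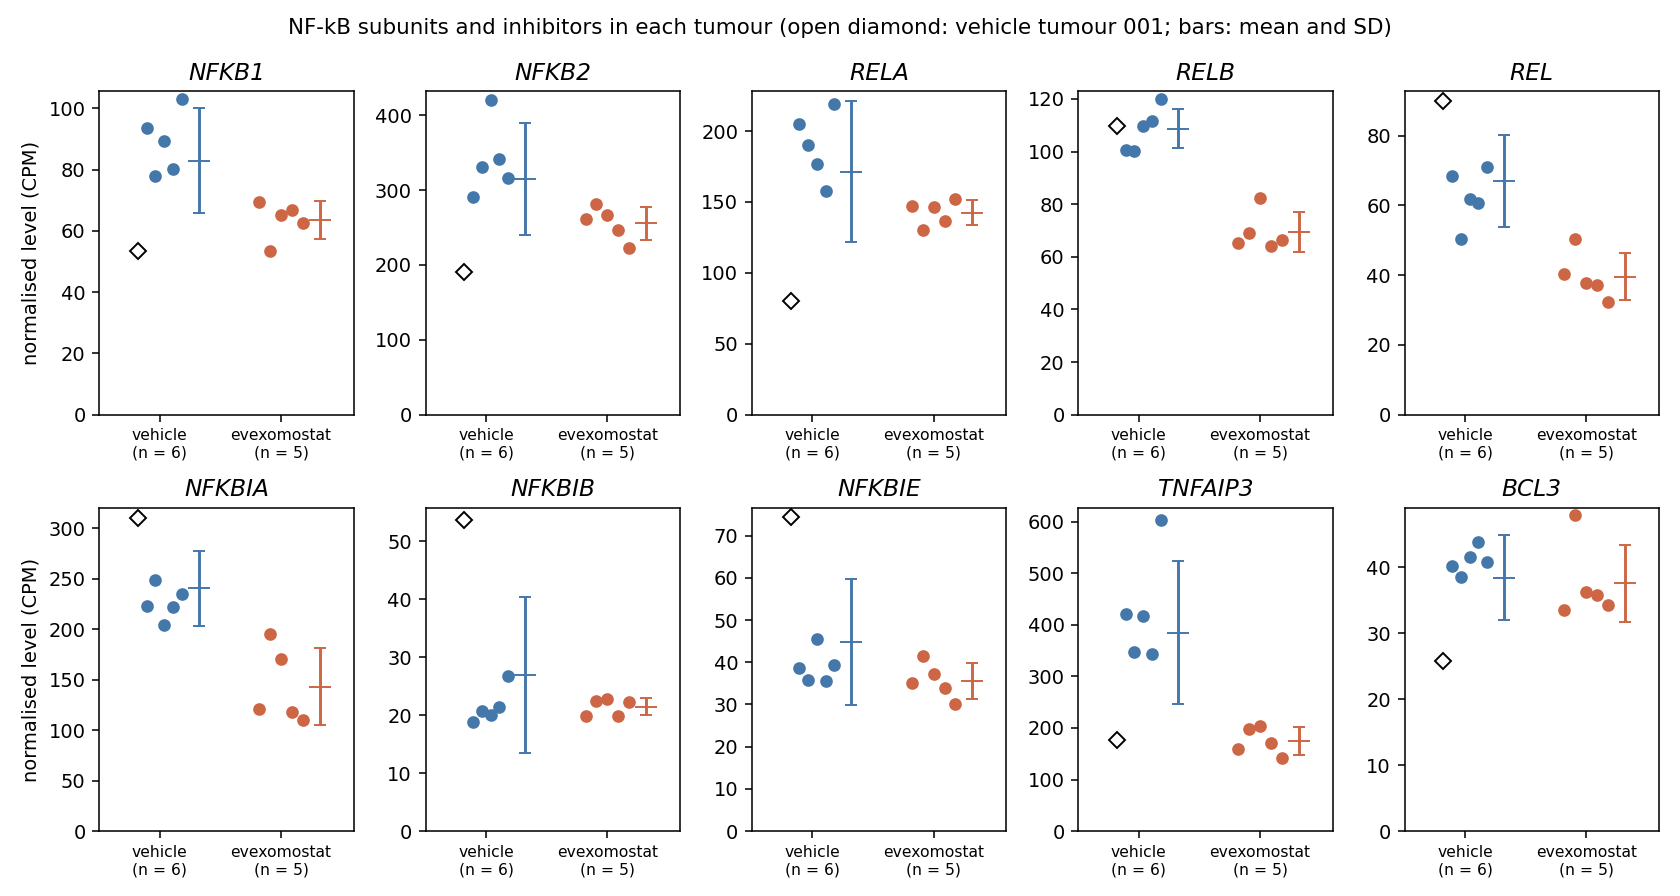
Level of each of the 10 genes in CPM (vertical axes, each starting at 0) in 6 vehicle and 5 evexomostat tumours; points are tumours, bars the mean and SD, and the open diamond is vehicle tumour 001. The groups are separate for RELB, REL and NFKBIA, and the diamond lies below the evexomostat tumours for RELA, NFKB2 and BCL3 and far above the other vehicle tumours for NFKBIB and NFKBIE.

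RELB encodes the subunit that pairs mainly with p52 in the non-canonical arm, and it is itself a target of the canonical arm. Its level in vehicle tumours was 100.3, 109.8 and 120.0 CPM (lowest, median and highest of 6). In evexomostat tumours 002, 003, 004, 005 and 007 it was 65.4, 69.0, 82.5, 64.1 and 66.5 CPM. All 5 treated tumours lay below the lowest vehicle tumour, and vehicle 001, at 109.7 CPM, sat in the middle of its group. RELB averaged 108.7 ± 7.39 CPM (SD, n = 6) under vehicle and 69.5 ± 7.48 CPM (SD, n = 5) under evexomostat, 36.1% lower by the fitted ratio. The log2 fold change was -0.65 ± 0.11 (SE), with an adjusted p of 0.0246 in edgeR's quasi-likelihood test, and -0.64 ± 0.09 with an adjusted p of 0.00834 without vehicle 001. Over 21 alternative settings the fold change stayed between -0.71 and -0.55 and passed the threshold in 15. The call was lost without evexomostat tumour 002 (adjusted p of 0.0835), 003 (0.0523), 005 (0.103) or 007 (0.110), with a block on the replicate number (0.0876) and on log2(RPM + 0.1) (0.053), by the edgeR and limma fits.

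NFKB2 encodes p100, which restrains RELB until it is cut to p52, so it is the partner of RELB and an inhibitor in one gene. Vehicle tumours held 190.5, 323.1 and 420.3 CPM (lowest, median and highest), and the lowest was tumour 001. Evexomostat tumours 002 to 007 in order held 261.2, 281.2, 266.8, 247.0 and 223.2 CPM. The treated tumours lay between vehicle 001 and the other 5 vehicle tumours, which began at 291.2 CPM. The log2 fold change of NFKB2 was -0.30 ± 0.17 with an adjusted p of 0.491 by edgeR, and -0.40 ± 0.11 with 0.056 without vehicle 001, so NFKB2 passed the threshold in neither fit.

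REL encodes c-Rel, a strongly activating subunit best known from lymphocytes. Its vehicle level was 50.5, 65.2 and 89.8 CPM (lowest, median and highest), with vehicle 001 the highest. In evexomostat tumours 002, 003, 004, 005 and 007 it was 40.3, 50.3, 37.8, 37.1 and 32.3 CPM. The groups did not overlap, but tumour 003 came within 1 CPM of the lowest vehicle tumour. Mean levels were 67.1 ± 13.3 CPM (SD, n = 6) and 39.5 ± 6.68 CPM (SD, n = 5). REL had a log2 fold change of -0.76 ± 0.16 with an adjusted p of 0.0539 by edgeR, just above the threshold. It was called without vehicle 001 (-0.65 ± 0.13, adjusted p of 0.0192), by DESeq2 (0.00127), by limma-voom with sample quality weights (0.00385), by edgeR without the count filter (0.0499) and by edgeR on the 8 libraries whose numbers occur in both groups (0.041).

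RELA encodes p65, the subunit that carries the activating domain of the most common pair, and NFKB1 encodes p105, the precursor of its partner p50. RELA in vehicle tumours was 80.3, 183.3 and 218.8 CPM (lowest, median and highest), and in evexomostat tumours 002, 003, 004, 005 and 007 it was 147.3, 130.0, 146.6, 136.5 and 152.4 CPM. The lowest vehicle value was again tumour 001, and all treated tumours lay above it and below the other 5 vehicle tumours, which began at 157.8 CPM. RELA had a log2 fold change of -0.27 ± 0.21 with an adjusted p of 0.643 by edgeR, and -0.41 ± 0.10 with 0.0413 without vehicle 001.

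NFKB1 was likewise low in vehicle 001. Its vehicle level was 53.4, 84.7 and 103.0 CPM (lowest, median and highest), and in evexomostat tumours 002, 003, 004, 005 and 007 it was 69.5, 53.3, 65.3, 66.9 and 62.6 CPM. Vehicle 001 lay inside the treated range, just above evexomostat tumour 003, while the other vehicle tumours began at 78.0 CPM, above all treated tumours. NFKB1 had a log2 fold change of -0.38 ± 0.16 with an adjusted p of 0.301 by edgeR, and -0.48 ± 0.10 with 0.0278 without vehicle 001.

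TNFAIP3 encodes A20, a ubiquitin-editing enzyme that shuts down signalling between the TNF receptor and the IKK kinases. It had the largest fold change of the 10 genes. In vehicle tumours 001, 003, 004, 005, 006 and 007 its level was 176.4, 421.9, 346.3, 418.0, 343.2 and 603.4 CPM. In evexomostat tumours 002, 003, 004, 005 and 007 it was 158.7, 197.1, 204.6, 171.8 and 141.2 CPM. Only vehicle 001 fell inside the treated range, and the other 5 vehicle tumours lay above 343 CPM. The means were 384.9 ± 139.2 CPM (SD, n = 6) and 174.7 ± 26.4 CPM (SD, n = 5). The log2 fold change of TNFAIP3 was -1.14 ± 0.25 with an adjusted p of 0.0631 by edgeR, and it did not pass the threshold. It did so without vehicle 001 (-1.28 ± 0.16, adjusted p of 0.0054), by DESeq2 (0.000912), by limma-voom with sample quality weights (0.00196) and by edgeR on the 8 libraries whose numbers occur in both groups (0.0107). The fold change stayed between -1.33 and -0.96 over the 21 settings. The authors' deposited table gives TNFAIP3 a log2 fold change of -1.05 and an adjusted p of 0.00945, and it is the only member called there.

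NFKBIA encodes IkB-alpha, the inhibitor that is destroyed within minutes of a signal and then rebuilt from its own promoter. Its vehicle level was 204.0, 229.0 and 309.9 CPM (lowest, median and highest), with tumour 001 the highest. In evexomostat tumours 002, 003, 004, 005 and 007 it was 121.2, 195.8, 170.7, 118.3 and 110.2 CPM. The groups did not overlap, and the treated tumours spread widely, with 002, 005 and 007 near each other and 003 close to the vehicle range. Means were 240.5 ± 37.2 CPM (SD, n = 6) and 143.2 ± 37.8 CPM (SD, n = 5). The log2 fold change of NFKBIA was -0.75 ± 0.18 with an adjusted p of 0.0774 by edgeR. It passed the threshold without vehicle 001 (-0.66 ± 0.16, adjusted p of 0.0351), by DESeq2 (0.00445) and by limma-voom with sample quality weights (0.0146).

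NFKBIB and NFKBIE encode IkB-beta and IkB-epsilon, slower relatives of IkB-alpha. For NFKBIB the vehicle level was 18.9, 21.1 and 53.7 CPM (lowest, median and highest), and evexomostat tumours 002, 003, 004, 005 and 007 held 19.9, 22.5, 22.9, 19.8 and 22.3 CPM. The highest vehicle value was tumour 001, and the remaining vehicle tumours, up to 26.7 CPM, spanned the whole treated range. NFKBIB had a log2 fold change of -0.32 ± 0.25 with an adjusted p of 0.644 by edgeR, and -0.001 ± 0.11 with 0.997 without that tumour. NFKBIE was also highest in vehicle 001. Its vehicle level was 35.5, 38.9 and 74.3 CPM (lowest, median and highest, the last in tumour 001), and evexomostat tumours held 35.0, 41.5, 37.3, 34.0 and 30.1 CPM, of which 3 lay below every vehicle tumour. NFKBIE had a log2 fold change of -0.33 ± 0.19 with an adjusted p of 0.492 by edgeR, and -0.13 ± 0.11 with 0.512 without tumour 001. The negative sign of NFKBIB rested on 1 library, and it turned positive, at 0.02, with sample quality weights.

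BCL3 encodes an atypical IkB protein of the nucleus that binds p50 and p52 and can raise transcription. Its vehicle level was 25.8, 40.5 and 43.9 CPM (lowest, median and highest), the lowest in tumour 001. Evexomostat tumours 002, 003, 004, 005 and 007 held 33.5, 47.9, 36.3, 35.9 and 34.2 CPM, with 003 above every vehicle tumour. BCL3 had a log2 fold change of -0.03 ± 0.15 with an adjusted p of 0.956 by edgeR and -0.12 ± 0.11 with 0.525 without vehicle 001. Its sign turned positive with upper quartile scaling (0.02) and on both RPM scales (0.07), where the median of all genes moved up by 0.04, 0.11 and 0.14. The other 8 members, leaving out NFKBIB and BCL3, kept a negative sign in all 21 alternatives.

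**Figure D2:**
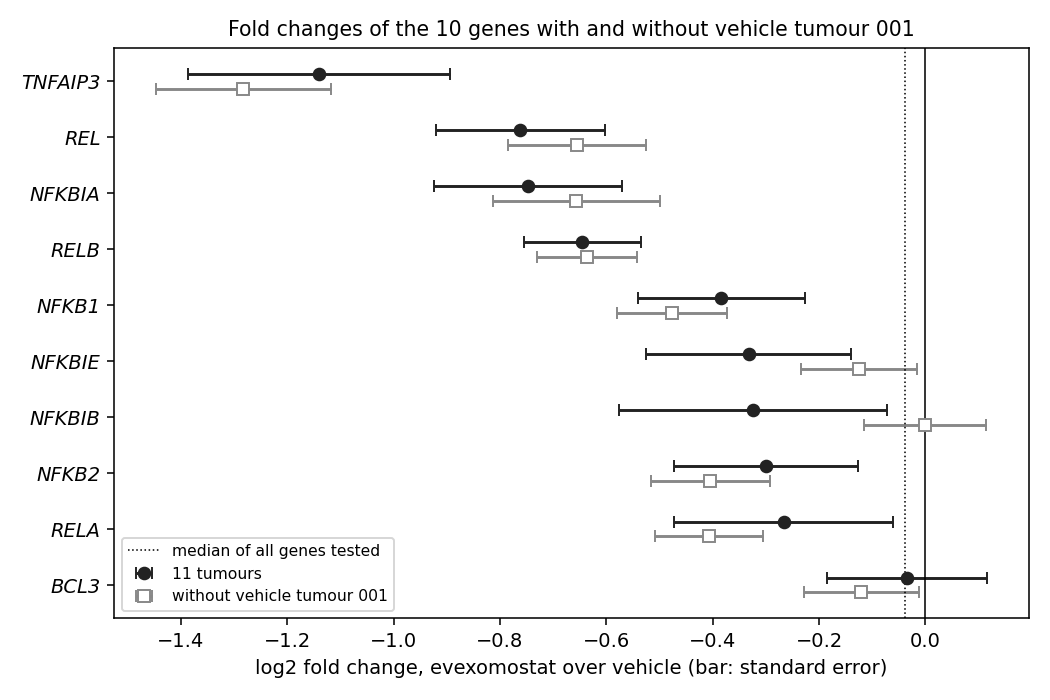
Log2 fold change of evexomostat over vehicle (horizontal axis) with its standard error for each gene, fitted on 11 tumours and on the 10 tumours without vehicle 001. TNFAIP3 moves from -1.14 to -1.28 and RELA from -0.27 to -0.41, while NFKBIB moves from -0.32 to 0.

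Vehicle 001 deviated from the mean of the other vehicle tumours in both directions. NFKBIB was higher there by 1.32 on the log2 scale, NFKBIE by 0.94, REL by 0.53 and NFKBIA by 0.45. RELB differed by 0.02. The remaining 5 were lower there, BCL3 at -0.67, NFKB1 at -0.73, NFKB2 at -0.82, RELA at -1.23 and TNFAIP3 at -1.24. The members with higher values in that tumour had GENCODE 29 transcripts of 1159 bases (NFKBIB), 1558 (NFKBIA), 2581 (NFKBIE) and 11255 (REL). Those with lower values had 2038 bases (BCL3), 2700 (RELA), 3416 (NFKB2), 4085 (NFKB1) and 4735 (TNFAIP3). Apart from REL and BCL3, the transcripts of the higher members were shorter than those of the lower members, and the part of length was not tested.

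**Figure D3:**
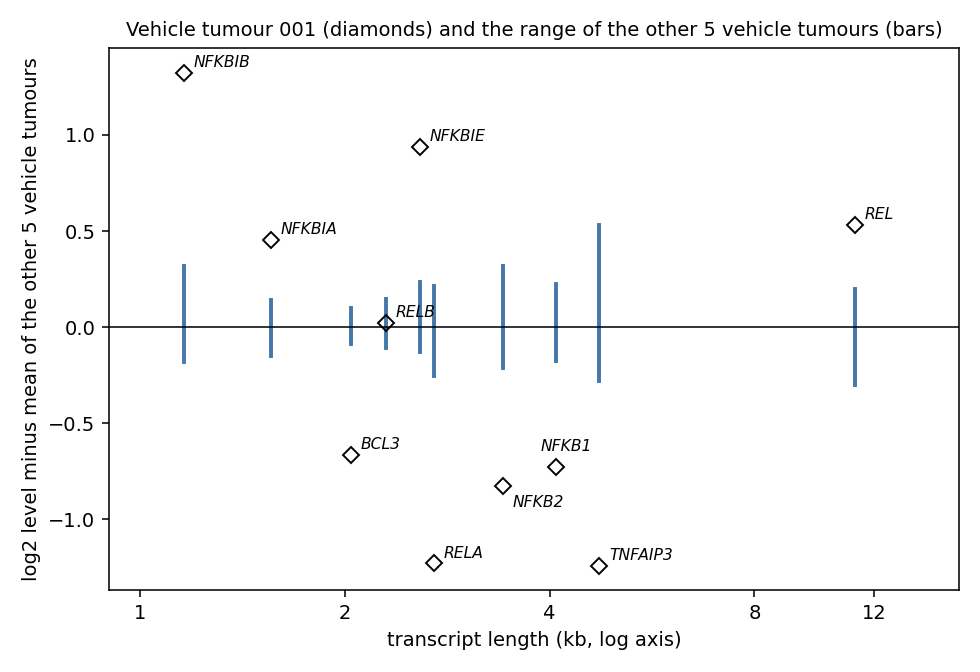
Log2 level in vehicle tumour 001 minus the mean of the other 5 vehicle tumours (vertical axis) against transcript length in kilobases (horizontal log axis); diamonds are tumour 001 and bars the span of the other vehicle tumours. Diamonds run from 1.32 for NFKBIB to -1.24 for TNFAIP3, and only RELB lies inside the span of the other tumours.

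Levels can be compared between genes only per length, here as CPM per kilobase of the longest coding transcript in GENCODE 29. In vehicle tumours NFKBIA was highest at 154.4 ± 23.9 CPM per kilobase (SD, n = 6), and its range did not overlap with that of NFKB2 at 92.2 ± 22.0. TNFAIP3 at 81.3 ± 29.4, RELA at 63.5 ± 18.3 and RELB at 47.4 ± 3.22 came next, each overlapping its neighbour. NFKBIB at 23.2, NFKB1 at 20.3, BCL3 at 18.9 and NFKBIE at 17.4 CPM per kilobase overlapped one another, and REL was lowest at 5.96 ± 1.18. Under evexomostat NFKBIA was again highest at 91.9 ± 24.3 and REL lowest at 3.51 ± 0.593 CPM per kilobase (SD, n = 5). By these means the order differed only in that RELA (52.8) stood above TNFAIP3 (36.9) and BCL3 (18.4) above NFKB1 (15.6). The vehicle order includes tumour 001, the highest for NFKBIB at 46.3 and the lowest for RELA at 29.8 CPM per kilobase. Only through that tumour did RELB overlap with RELA and with NFKBIB. The order without it was not computed. The lowest level per length of REL uses a long transcript, and its rank would move if the counting used a shorter one.

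Within each group, some pairs of members moved together, and others changed sign without vehicle 001. The pairs named here are examples among all pairs. After subtracting the group mean of log2 CPM, RELA and NFKB1 correlated at Pearson's r of 0.91 over the 11 tumours and 0.68 over the 10 without vehicle 001. REL and NFKBIE correlated at 0.81 and 0.70. RELA and NFKBIE correlated at -0.86 over 11 tumours and -0.18 over 10, so that pair rested on vehicle 001. TNFAIP3 and NFKBIB correlated at -0.65 and, without that tumour, at 0.62. NFKB2 changed sign in the same way with RELA (0.69 and -0.57) and with NFKB1 (0.62 and -0.29). The strongest pair over the 10 tumours was NFKB2 and NFKBIE at 0.75, against -0.57 over 11. Both genes of a pair are read from the same libraries and so share each library's depth and composition, and the values are a description. Among all other tested genes, those most like TNFAIP3 by the same measure were VAV3 (0.958), PHF21A (0.955) and FGFR2 (0.953). For REL they were BEND5 (0.945), RELL1 (0.936) and FFAR2 (0.919), and for NFKBIA SNORD81 (0.921), COA6-AS1 (0.921) and CCDC88B (0.920). Without vehicle 001 these 9 correlations lay between 0.866 and 0.950, and the order changed. PHF21A then ranked 34 and FGFR2 ranked 11 for TNFAIP3, BEND5 ranked 9 for REL and SNORD81 ranked 11 for NFKBIA, so the naming of these genes rests in part on that tumour. These genes were picked as the highest among all tested genes over few tumours. How high such a pick reaches by chance was not computed.

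The rest of the pathway was read from 5 lists of 83 genes, of which 78 were tested. Of these, 7 fell past the threshold and 0 rose, and 62 of 78 had a negative fold change with a median of -0.26, where 0.432% of all genes were called lower and 55.4% were negative. By edgeR at an unadjusted p under 0.05, 26 were lower and 2 higher, where 8.55% of all genes were lower. The 7 calls became 0 without evexomostat tumour 002, 005 or 007, where 26, 28 and 26 genes had an unadjusted p under 0.05. They became 3 without evexomostat 004, 4 without vehicle 004 or 007, and 18 without vehicle 001 (17 lower and 1 higher). Calls among all genes, 101 in the main fit, changed in the same direction in each of these fits. Without evexomostat 002, 005, 007 and 004 they were 2, 1, 3 and 28. Without vehicle 004, 007 and 001 they were 46, 56 and 865. In the fit without vehicle 001, 3.24% of all genes were called lower, and 37.9% of the 865 calls were higher. The ribosomal share was higher in every evexomostat tumour than in the vehicle tumours other than 001, and its part in these calls was not tested.

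**Figure D4:**
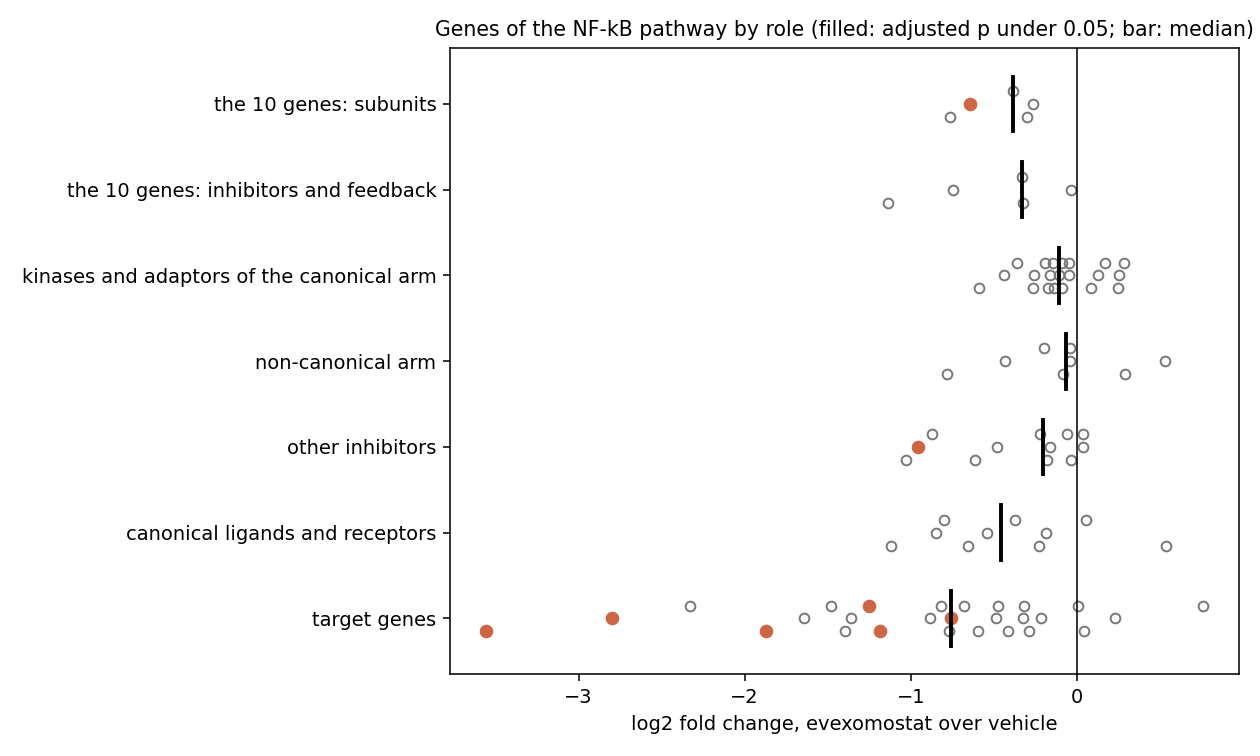
Log2 fold change (horizontal axis) of every tested gene in the 5 subunits, the 5 inhibitors and the 5 pathway lists; filled points passed the adjusted p of 0.05 and bars mark medians. Medians run from -0.06 for the non-canonical arm to -0.76 for target genes, against -0.04 for all genes.

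Upstream, the 21 kinases and adaptors of the canonical arm, which carry the signal to the IkB proteins, had a median log2 fold change of -0.11, with 15 negative. None was called by edgeR, whose unadjusted p was under 0.05 for 2 lower and 1 higher, and DESeq2 called 0. The largest were IRAK2, an adaptor kinase of interleukin-1 signalling, at -0.59 ± 0.21 (adjusted p of 0.231 by edgeR), TAB2 at -0.44 ± 0.14 (0.192) and TAB3 at -0.36 (0.499). On the RPM scales the median of this list was 0.0025 and 0.0027, where the median of all genes was 0.08 and 0.10, so it lay below that of all genes in each of these fits.

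Of the 10 genes of the non-canonical arm, 8 were tested, 6 were negative and the median was -0.06. On the RPM scales it was 0.04 and 0.05, where the median of all genes was 0.08 and 0.10. None was called by edgeR or DESeq2, and 1, higher, had an unadjusted p under 0.05. That gene was MAP3K14, which encodes the NIK kinase at the head of this arm. MAP3K14 averaged 24.8 CPM under vehicle and 35.9 under evexomostat, with a log2 fold change of 0.53 ± 0.17 and an adjusted p of 0.189 by edgeR. LTBR, the lymphotoxin beta receptor, had -0.43 (0.463). It was the 1 gene of this arm called without vehicle 001, at -0.58 with an adjusted p of 0.0261 by edgeR. Its groups still overlapped there, and 3.24% of all genes were called lower in that fit. TNFRSF12A, the receptor of TWEAK, had a log2 fold change of 0.29 (0.378). LTA and LTB, ligands of LTBR, were not tested, with at most 6 counts and 0 counts in any tumour. Whether these counts reflect their expression was not tested.

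Other inhibitors had a median of -0.20 over 12 tested genes, with 10 negative and 1 past the threshold. That gene was NFKBIZ, which encodes IkB-zeta, an inducible nuclear relative of BCL3. NFKBIZ in evexomostat tumours 002, 003, 004, 005 and 007 was 36.3, 46.3, 42.1, 35.8 and 31.8 CPM, below the lowest vehicle tumour at 48.1 CPM, which was tumour 001. Its means were 74.5 ± 21.2 CPM (SD, n = 6) and 38.4 ± 5.72 CPM (SD, n = 5), and its log2 fold change was -0.95 ± 0.19 with an adjusted p of 0.0466 by edgeR. TNIP3, an A20-binding protein, stood at -1.03 ± 0.33 (0.194), ZC3H12A, an RNase that degrades inflammatory transcripts, at -0.87 ± 0.31 (0.231) and TNIP1, another partner of A20, at -0.61 ± 0.15 (0.0953). Without vehicle 001, 4 of these inhibitors passed the threshold as lower, NFKBIZ, TNIP1, ZC3H12A and CYLD, the last a deubiquitinase. In that fit 3.24% of all genes were called lower. IER3 was not tested.

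Ligands and receptors of the canonical arm had a median of -0.46 over 10 tested genes, with 8 negative. None was called by edgeR, 4 had a lower unadjusted p under 0.05, and DESeq2 called 1. IL1R1, the signalling receptor of interleukin-1, averaged 66.2 CPM under vehicle and 30.5 under evexomostat, with a log2 fold change of -1.12 ± 0.32 and an adjusted p of 0.137 by edgeR. It was the 1 gene of this list that passed without vehicle 001 (-1.26, adjusted p of 0.0284). In that fit 3.24% of all genes were called lower. TNFRSF1B stood at -0.85 (0.313) and IL1A, a ligand of IL1R1, at -0.80 (0.237). TNF, which encodes the best known inducer of the pathway, was listed at 0 in all tumours. The annotation used is not given, so a lack of TNF RNA and reads that were not counted cannot be told apart.

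Target genes had the lowest median, -0.76 over 27 tested genes, with 23 negative, 6 past the threshold as lower and 11 whose treated tumours all lay below the vehicle tumours, where 0.432% and 1.64% of all genes did so. The list was written with results of these tumours known, and its direction is not independent evidence. The 6 were ICAM1, an adhesion molecule, SOD2, a mitochondrial superoxide dismutase, BIRC3 and BCL2A1, which restrain cell death, the chemokine CCL20 and PTGS2, the inducible cyclooxygenase. ICAM1 averaged 212.8 ± 56.2 CPM (SD, n = 6) under vehicle and 89.3 ± 10.6 CPM (SD, n = 5) under evexomostat, with a log2 fold change of -1.25 ± 0.20 and an adjusted p of 0.0189 by edgeR. BIRC3, which encodes a ubiquitin ligase that also degrades the NIK kinase, was 75.3, 89.7, 75.7, 65.4 and 49.9 CPM in evexomostat tumours, all under the vehicle minimum of 102.2 CPM. Its log2 fold change was -0.76 ± 0.15 with an adjusted p of 0.0462 by edgeR. BCL2A1 passed at a low level, with 3 to 29 counts per tumour and a log2 fold change of -1.87 ± 0.37 (adjusted p of 0.0462). The fold changes of PTGS2, CCL20 and SOD2 were -3.56, -2.80 and -1.19. Among targets that missed the threshold, CXCL1 stood at -2.33 (0.0613), VCAM1 at -1.64 (0.121) and CXCL3 at -1.48 (0.0665). Without vehicle 001, 11 targets were called lower and 1 higher by edgeR, where 3.24% of all genes were called lower. Of the 865 genes called in that fit, 37.9% were higher. CXCL1 at -2.21 (0.0337) and CXCL3 at -1.49 (0.033) then passed the threshold, and VCAM1 at -1.65 (0.0608) did not. IL6 at -1.37 (0.0455), CSF1 at -0.56 (0.0254) and SDC4 at -0.51 (0.034) were also called lower only without that tumour. The target median was -1.03 without evexomostat tumour 003 and -0.56 without tumour 007. CSF2 was not tested. GADD45B was the 1 pathway gene called higher without vehicle 001, at 0.67 with an adjusted p of 0.0477 by edgeR, and it was named after its value was seen.

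**Figure D5:**
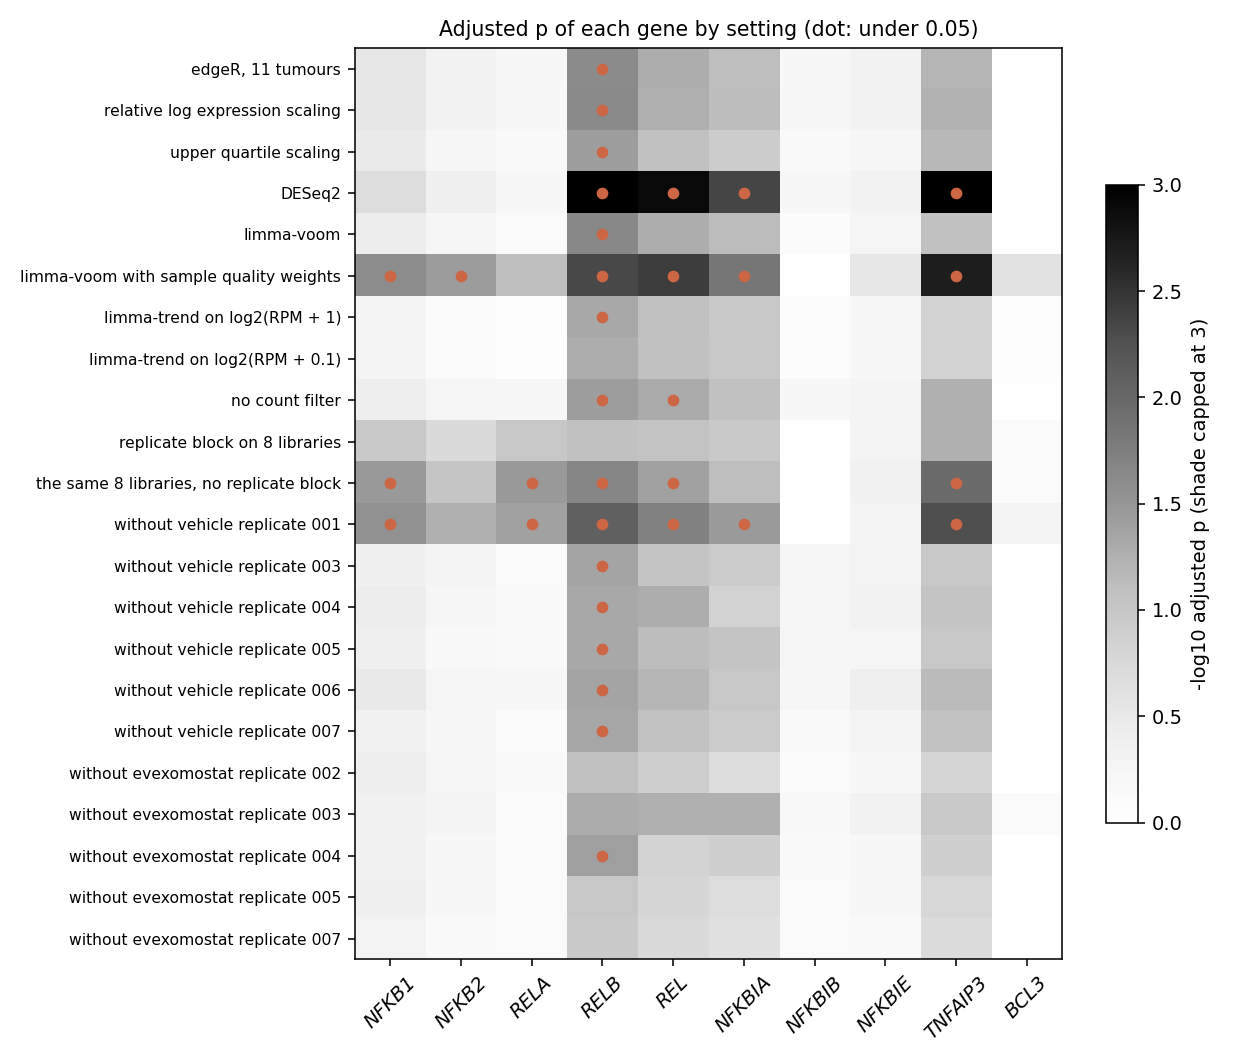
Adjusted p of each of the 10 genes (columns) in the edgeR fit on all tumours and in 21 alternative settings (rows); shade is the -log10 of the adjusted p, darker for smaller p and capped at 3, and a dot marks values under 0.05. RELB has dots in 15 alternatives, REL in 5 and TNFAIP3 in 4, while NFKBIB, NFKBIE and BCL3 have none.

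The settings differed in how many members they called, and each is read beside its own share of all genes called lower. DESeq2 called 4 of the 10 members, with 2.71% of all genes called lower. Limma-voom with sample quality weights, which gives less weight to a library that departs from the rest, called 6, with 4.05%. EdgeR without the count filter called 2, with 0.311%. On log2(RPM + 0.1) limma called 0, with 0.18%, and 4 members had an unadjusted p under 0.05. On the 8 libraries whose numbers occur in both groups, edgeR called 5 members, with 3.06%, and with a block on that number 0, with 0.5%, where 7 had an unadjusted p under 0.05. Leaving out evexomostat tumour 002, 003, 005 or 007 left 0 members called, with 0.00596%, 0.185%, 0% and 0.00596% of all genes called lower, and 5, 4, 5 and 4 members at an unadjusted p under 0.05. NFKB1 passed in 3 of the 21 alternatives, RELA in 2 and NFKB2 in 1. The authors' deposited table called 1 of the 10, with 0.536% of its genes called lower. That table gives RELB a log2 fold change of -0.55 and an adjusted p of 0.0764, REL -0.65 and 0.0551, and NFKBIA -0.64 and 0.094. BCL3 is the member it lists as positive, at 0.05.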

How the data were processed

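Total RNA of 11 tumours was sequenced as paired-end reads, per the labels' protocols. The deposited count table holds whole-number counts per symbol, and the authors' RPM table the same counts scaled to a common total. The authors' deposited comparison table gives log2 fold changes and p-values. Per the submitters' processing notes, bcl2fastq 2.17, STAR 2.7.5c, featureCounts, Subread and edgeR and the build GRCh37 (hg19) were used. Annotation, strand and handling of mouse reads are not given in the sources used here, so reads of overlapping or close genes, or of mouse genes, may be counted in part together.

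Members and lists were chosen with earlier results of these data known. Counts passing filterByExpr (minimum 10, total 15) were scaled with TMM and compared without covariates over the 11 tumours with edgeR's quasi-likelihood test (edgeR 4.0.16, R 4.3.3), with Benjamini-Hochberg adjustment over 16653 genes. Correlations used log2 CPM with a prior count of 2. Fits were also run on simulated counts drawn independently for each tumour, with no deviating library and no replicate effect. That run does not bear on how the calls depend on single tumours. Named were all members, all pathway genes past the threshold, in each list the 3 largest others by fold change at a mean log2 CPM of at least 1, and the 3 genes most like each of the 3 members with the largest fold change. CYLD, IL6, CSF1, SDC4 and GADD45B, called only without vehicle 001, were named besides these. Alternatives were other scalings, DESeq2 1.42.0, limma 3.58.1 on voom and log2(RPM + 1 or 0.1) values, no filter, a block on the replicate number, and leaving out each tumour. No pair of libraries was a duplicate (smallest chi-square per degree of freedom 16.6). The labels give no pairing for the 8 libraries that share a number, and the correlations given below cannot decide it. Promoters came from RefSeq.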

Additional observations from a re-analysis of the deposited data

Results flagged for a closer look

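Each gene's highest and lowest tumour in each group was set against the rest of that group. Of 40 such comparisons in 20 groups, 5 stood apart by Dixon's 95% limit, which chance reaches in about 1 in 20 groups. Vehicle tumour 001 accounted for 3 of the 5. NFKBIB was 53.7 CPM there against 18.9 to 26.7 CPM in the other vehicle tumours, NFKBIE was 74.3 against 35.5 to 45.5 CPM, and BCL3 was 25.8 against 38.5 to 43.9 CPM. RELB in evexomostat tumour 004 was 82.5 CPM against 64.1 to 69.0 CPM in the other treated tumours, still below every vehicle tumour. BCL3 in evexomostat tumour 003 was 47.9 CPM against 33.5 to 36.3 CPM.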

How the results depend on the processing

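Of the 10 members, 1 passed the threshold in the edgeR fit, against 4 with DESeq2, 6 with sample quality weights, 2 without the count filter and 0 on log2(RPM + 0.1), where 4 had an unadjusted p under 0.05. Leaving out each tumour in turn gave 0 to 6 members. With a replicate block on the 8 libraries that share a number, 0 members passed (7 at an unadjusted p under 0.05) and 107 genes of all, and the same 8 libraries without the block gave 5 members and 733 genes. Deviations of same-numbered libraries from their group means correlated at -0.27, 0.07, 0.05 and -0.10 across genes. Differently numbered libraries were not compared, so these values cannot decide whether a shared number carries a batch or pairing. The labels give neither. Among all genes, 101 calls became 649 with DESeq2, 1059 with quality weights and 1 to 865 when a tumour was left out. The 7 pathway genes became 4 with upper quartile scaling, 17 with DESeq2, 25 with quality weights, 4 and 3 on log2(RPM + 1) and log2(RPM + 0.1), 4 with the block, 13 without it and 0 to 18 when a tumour was left out. The target median ranged from -1.03 to -0.56 when a tumour was left out. NFKBIB turned positive with quality weights (0.0184), the block (0.0206) and the same 8 libraries without it (0.0109). BCL3 did so with upper quartile scaling (0.0179) and on the RPM scales (0.068 and 0.0703), and ranged from -0.1366 to 0.007 when a tumour was left out. The share of calls that were higher was 28.7%, and it was 40% with upper quartile scaling and 58.1% and 55.9% on the RPM scales. The causes were not tested. Leaving out a tumour also leaves fewer samples, and the part of sample number cannot be told apart from that of the tumour left out.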

Other observations

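The ratio of TNFAIP3 to RELA counts was chosen after the values had been seen and carries no test. It was 1.82, 2.19 and 2.76 in vehicle tumours (lowest, median and highest of 6), with 2.20 in tumour 001, and 1.08, 1.52, 1.40, 1.26 and 0.927 in evexomostat tumours 002, 003, 004, 005 and 007. All treated tumours lay below all vehicle tumours, and vehicle 001 lay inside its group's range. That tumour was the lowest vehicle tumour for both genes, at 176.4 CPM for TNFAIP3 and 80.3 CPM for RELA. Of the 9 members set against RELA in this way, TNFAIP3 was the 1 with separate groups. The share of all genes with separate groups in such a ratio was not computed, so this count has no background.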
